A study of Mus musculus with 14 samples.

Results

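Dorsal skin of wild-type C57BL/6 mouse embryos was profiled by RNA-seq in 2 sequencing projects, and the 4 libraries of the second project were set against the 4 libraries of the first. Each project holds 1 library for each of 4 ages from E9.5 to E14.5, so the members are 8 skin libraries of 14 in the series, paired by embryonic day. Both groups carry the same strain, genotype, tissue and age labels, which differ only in the project named in the sample descriptions and in the letters before the age in the second project's titles, whose meaning the labels do not give. The other 6 libraries come from the aorta-gonad-mesonephros region (AGM) of the same strain at E9.5 to E11.5, sequenced in projects of their own, and serve here only as a reference. The labels do not say whether embryos were pooled, how the dorsal skin was cut, or whether a library was made with the Illumina or the Kapa kit that they name as alternatives. Nor is it stated which embryos a library came from, and a p-value here speaks only of the spread among the libraries at hand. Whatever else differed between the projects cannot be told apart from the project itself. The second-project libraries go against their tissue label in part, which bears on every value given for them. Fibroblast and dermal mesenchyme genes were abundant there as a summed list. Krt14, a defining gene of keratinocytes, however held 3 counts over the 4 libraries, and haemoglobin genes held at most 1 count in a library. Pecam1 of vessels was at 0.389 to 0.739 CPM and Myog of muscle held no count. The protocol in the labels, the same for all samples, has the tissue frozen after removal and names no culture or treatment. These libraries are therefore called by their project, and skin stands for their label.

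Embryonic skin has an outer epithelium, first simple and later stratified into basal and suprabasal keratinocytes, above a mesenchyme from which dermal fibroblasts arise. Blood vessels, circulating red cells, neural crest derivatives (Schwann cells and melanoblasts), macrophages and, in a dissected piece, the muscle and nerve beneath it contribute RNA as well. Between these ages the dermis and the epidermis grow by division of progenitors, and the epidermis begins to stratify near the end of the period. A comparison of libraries that share tissue and age labels asks which genes differ between the projects by the same amount whatever the age, and which differ by an amount that depends on the age.

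Total counts ran from 19929352 to 24003912 in the first project and from 6770338 to 15440012 in the second, with 25998 to 26832 and 21650 to 24339 genes detected. Levels are given as CPM, the gene's counts scaled to a common library total, and series of 4 values run from E9.5 through E10.5 and E12.5 to E14.5. Log2 changes are the second project minus the first with their standard errors, fitted by edgeR's quasi-likelihood test on counts with embryonic day as a block, and adjusted p-values are by Benjamini-Hochberg over all 16588 genes that passed the low-count filter. A gene was called at an adjusted p under 0.05. The composition scaling of the fit (TMM) raised the second project relative to the first, with factors of 1.08 to 1.16 in the first project and 0.864 to 0.918 in the second, so fitted log2 changes stand above the log2 ratio of the CPM values, by 0.34 at the median gene (-0.01 against -0.34).

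The test called 9754 genes (58.8% of those tested), 4893 higher in the second project (29.5%) and 4861 lower (29.3%). With library totals in place of TMM it called 10171, of which 38.9% were higher in the second project, against 50.2% with TMM. By the rule of a same-direction shift on CPM at all 4 days, 4620 genes were higher (27.9%) and 7247 lower (43.7%) by any amount, and TMM-scaled values gave 5824 and 5840. At 2-fold or more on each day, with 1 CPM added to both sides, 1938 genes were higher (11.7%) and 2683 lower (16.2%), and TMM-scaled values gave 2413 and 2033. At 8-fold or more on each day 417 genes were higher (2.51%) and 338 lower (2.04%), and TMM-scaled values gave 495 and 257. Near the 2-fold limit, 509 genes had a smallest daily log2 change of 0.9 to under 1 and 426 of 1 to under 1.1. Of the genes shifted 2-fold on all days, 1000 of the higher and 2586 of the lower were protein coding, while 774 of the higher and 5 of the lower were processed pseudogenes. The common dispersion of the fit was 0.162. That is a coefficient of variation of 40.3% for single libraries around the fitted day and project levels, with 3 residual degrees of freedom.

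The largest increases were in genes for secreted proteins that cut or bind the extracellular matrix. Mmp3 encodes stromelysin-1, a protease that degrades matrix proteins and activates other metalloproteinases. Its level was 0, 0.044, 0 and 0.0448 CPM in the first project and 3800, 3010, 5020 and 5470 CPM in the second. The first-project values are 2 counts in all, none of the 6 AGM libraries held a count, and the pooled ratio was 192000 (95% counting interval 53100 to 1580000; edgeR adjusted p = 0.000196). Mmp10, the second stromelysin gene, had no count in the first project and 176, 213, 182 and 253 CPM in the second, at least 6370-fold higher against a floor of 3 counts over the project. Mmp13, a collagenase gene, stood at 0, 0, 0 and 0.0448 CPM against 122, 66.4, 183 and 101 CPM, a pooled ratio of 9500 (95% counting interval 1700 to 375000). Mmp12, which encodes an elastase best known from macrophages, stood at 0, 0, 0 and 0.0895 CPM against 52.8, 58.8, 36.5 and 55.2 CPM, a pooled ratio of 2360 (653 to 19500). In all 4 genes every second-project library lay far above every first-project library. They were chosen among called genes at least 2-fold higher at each day, so a rise at all 4 days was set by that choice.

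These 4 genes lie within one cluster of metalloproteinase genes on chromosome 9, and their promoters are shown because the genes moved together. The windows are the 250 bases before a RefSeq start on GRCm38.p6, all on the plus strand: Mmp3 at chr9:7445572-7445821, Mmp10 at chr9:7502092-7502341, Mmp12 at chr9:7347124-7347373, Mmp13 at chr9:7272264-7272513. Capitals mark matches to TGANTCA, the consensus bound by AP-1 (dimers of Fos and Jun proteins), which reads the same on both strands. The window of Mmp12 is the one with a match of its 2 RefSeq starts.
Mmp3: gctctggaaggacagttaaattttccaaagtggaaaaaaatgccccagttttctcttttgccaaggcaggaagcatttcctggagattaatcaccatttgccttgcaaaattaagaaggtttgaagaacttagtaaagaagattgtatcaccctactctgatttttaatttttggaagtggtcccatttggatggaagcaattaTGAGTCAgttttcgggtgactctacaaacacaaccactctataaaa
Mmp10: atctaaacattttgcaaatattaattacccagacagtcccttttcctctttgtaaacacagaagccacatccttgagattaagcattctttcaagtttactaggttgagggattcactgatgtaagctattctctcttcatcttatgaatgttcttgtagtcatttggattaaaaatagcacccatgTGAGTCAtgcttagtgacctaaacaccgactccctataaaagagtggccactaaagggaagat
Mmp12: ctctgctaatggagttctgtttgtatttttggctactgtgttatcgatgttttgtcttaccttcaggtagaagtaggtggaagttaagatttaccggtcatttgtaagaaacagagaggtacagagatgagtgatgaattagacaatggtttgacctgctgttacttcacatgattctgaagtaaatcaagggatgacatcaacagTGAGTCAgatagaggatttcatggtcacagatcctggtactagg
Mmp13: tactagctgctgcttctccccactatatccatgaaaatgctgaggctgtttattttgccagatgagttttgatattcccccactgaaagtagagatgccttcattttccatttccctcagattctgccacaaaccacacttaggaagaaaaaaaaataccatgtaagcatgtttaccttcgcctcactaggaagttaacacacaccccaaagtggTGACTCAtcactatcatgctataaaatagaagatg
The match lay 46 bases before the start in Mmp3, 63 in Mmp10, 44 in Mmp12 and 35 in Mmp13. Among metalloproteinase genes called higher, 6 of the 9 with a window held the motif, and 0 of the 4 with a window that were lower or not called. The 1 gene with a window whose counts were too low to test held it as well, so that 7 of the 14 with a window did (50%). All 7 are neighbours in the chromosome 9 cluster, where Mmp8 held no match, and no window on another chromosome held one. These related neighbours are not independent cases, so the motif cannot be told apart from cluster membership. Over all RefSeq promoter windows of that length, 2217 of 32851 held it (6.75%), and 2113 of 27025 genes held it in at least 1 window (7.82%). A match describes letters in the window and is not evidence that a factor binds there.

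Of the 18 metalloproteinase genes tested, 12 were higher in the second project, 2 were lower and 4 were not called, with a median log2 change of 4.39 beside -0.01 for all genes tested. Mmp2, a gelatinase gene that the first project expressed as well, was at 98.1, 70.3, 312 and 304 CPM against 923, 1010, 1160 and 1260 CPM (log2 change 3.09 ± 0.41 (SE), edgeR adjusted p = 0.00171). Mmp19, of a further secreted enzyme, was at 1, 0.572, 1 and 5.15 CPM against 161, 141, 199 and 176 CPM (log2 change 7.28 ± 0.63, adjusted p = 0.000505). The 2 lower genes encode membrane-anchored enzymes, Mmp15 at 76.6 to 95.2 CPM against 5.33 to 7.05 CPM and Mmp17 at 9.94 to 14.7 CPM against 0.907 to 2.99 CPM. Neither pair of ranges overlapped, and 38.2% of all genes tested had every second-project library below every first-project library.

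Inhibitors of these enzymes were higher as well. Timp1, which encodes a secreted metalloproteinase inhibitor, was at 5.67, 3.83, 7.92 and 7.79 CPM against 1240, 1490, 888 and 1410 CPM (log2 change 7.99 ± 0.42, edgeR adjusted p = 0.000224). Timp2 was at 50.9, 60, 297 and 254 CPM against 1990, 2200, 1880 and 2200 CPM (4.4 ± 0.62, adjusted p = 0.002). Timp3, which binds the matrix, ran from 37.9 to 159 CPM against 32 to 47.9 CPM and was not called (adjusted p = 0.219). So the rise was not shared by every inhibitor tested, and 3 of 5 were called higher.

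All 6 tested genes of the plasminogen system, which turns plasminogen into the protease plasmin at the cell surface, were higher in the second project. Plau, the urokinase gene, was at 6.87, 6.16, 14.9 and 30.4 CPM against 429, 526, 458 and 725 CPM (log2 change 5.8 ± 0.42, edgeR adjusted p = 0.00034). Plaur, the gene of its receptor at the cell surface, was at 2.46, 0.792, 1.92 and 6.8 CPM against 23.8, 36.2, 21.1 and 32.8 CPM (3.89 ± 0.58, adjusted p = 0.00249). Protease and receptor were thus both higher at each day in the second project, with no overlap between the projects. Of all genes tested, 24.2% had every second-project library above every first-project library.

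Spp1 had the highest level per kilobase of exon of all genes outside the mitochondrial genome in the second project, at 17300 CPM per kilobase on average against 2.35 in the first. It encodes osteopontin, a secreted glycoprotein that binds integrins. Per library it was at 3.26, 1.19, 4.58 and 6.45 CPM against 30000, 22200, 35000 and 26900 CPM (log2 change 13.38 ± 0.87, edgeR adjusted p = 0.000295). The next levels per kilobase in the second project belonged to Eef1a1 (3120), Mmp3 (2400), Crabp1 (1920), Lgals1 (1710), Timp1 (1410), Tmsb4x (1360), Ctsl (1240), S100a6 (1230) and Tnc (1200). In the first project the 10 highest included 3 haemoglobin genes, H19, Actb, Hsp90ab1, Rplp1 and Eef2. None of the 10 genes was shared between the projects. Of 13 matricellular genes, which encode secreted proteins that modulate how cells attach to the matrix, 8 were higher, 0 were lower and the median log2 change was 3.26. Tnc (tenascin C) was at 43.6, 3.21, 357 and 186 CPM against 7910, 10500, 6510 and 12400 CPM (7.35 ± 1.46, adjusted p = 0.00678). Thbs1 (thrombospondin 1) was at 46, 56.3, 289 and 342 CPM against 2800, 3080, 1980 and 3110 CPM (4.75 ± 0.76, adjusted p = 0.00312). Postn (periostin) was highest at E14.5 in the first project, at 70.7, 28.4, 427 and 1960 CPM, lay at 193 to 268 CPM in the second and was not called (adjusted p = 0.706).

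**Figure D1:**
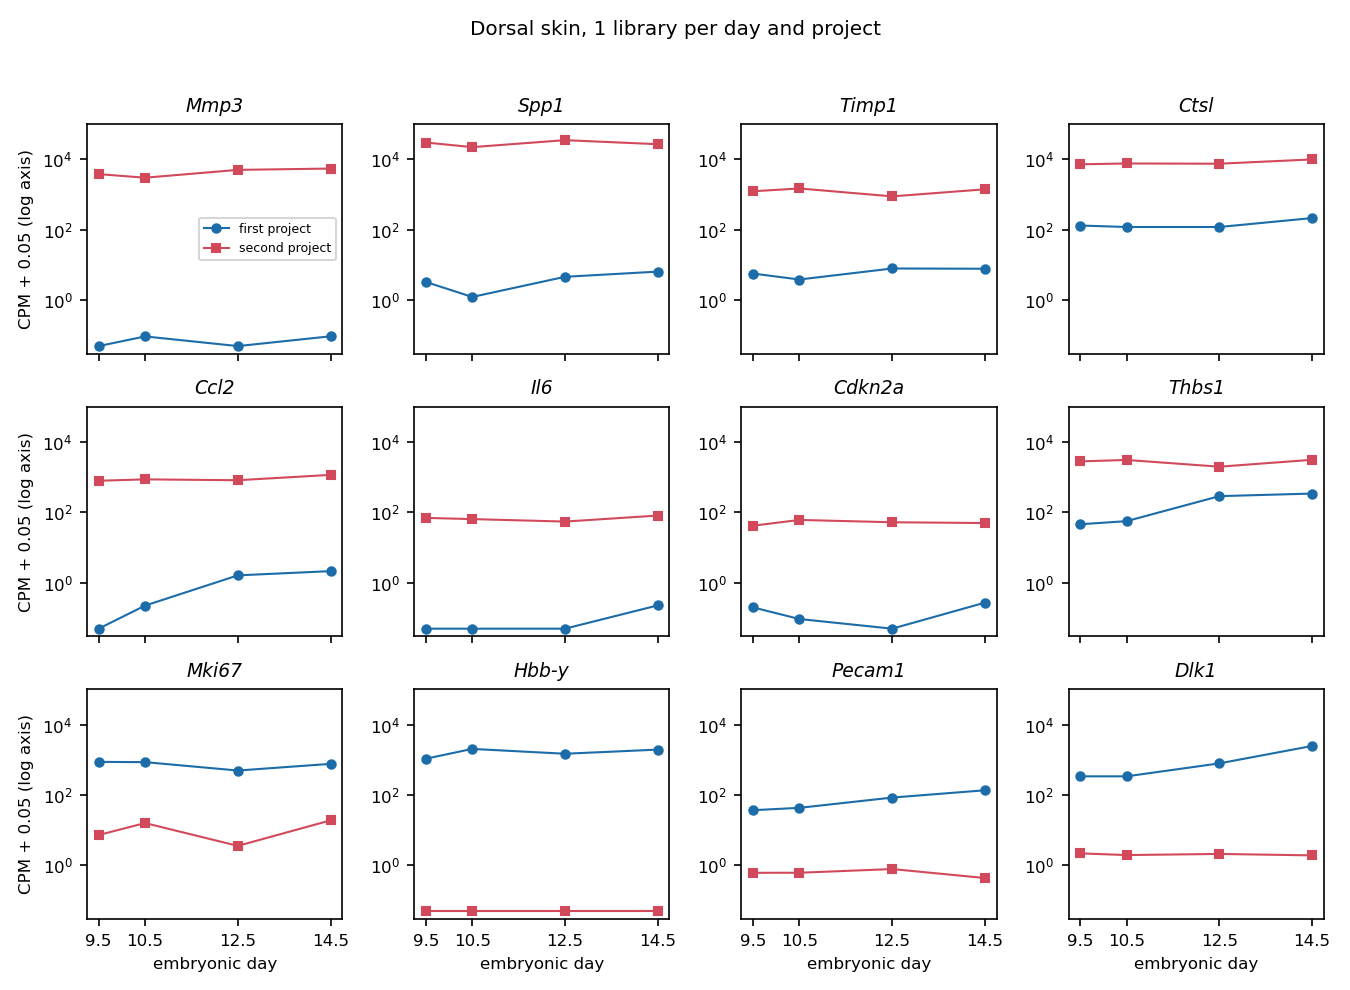
Levels of 12 genes in each of the 8 dorsal skin libraries by embryonic day, in CPM with 0.05 added on a log axis, 1 library per day and project (blue circles first project, red squares second). The 8 genes in the upper panels (Mmp3 to Thbs1) are higher in the second project at every day, and Mki67, Hbb-y, Pecam1 and Dlk1 are lower at every day.

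Chemokine, cytokine and prostaglandin genes formed the list with the largest positive median. Of 20 tested, 19 were higher and 1 was lower, with a median log2 change of 8.28. Ccl2, which attracts monocytes, was at 0, 0.176, 1.58 and 2.1 CPM against 790, 865, 818 and 1160 CPM (10.75 ± 1.1, edgeR adjusted p = 0.000758). Ccl7, its neighbour on chromosome 11, was at 0.0502, 0, 0.625 and 0.895 CPM against 462, 522, 466 and 691 CPM (11.03 ± 0.94, adjusted p = 0.000482). Both genes were barely detected in the first project and abundant in every library of the second. Cxcl5, which attracts neutrophils, was at 0.0448 to 0.0833 CPM against 107 to 193 CPM (11.35 ± 0.3, adjusted p = 0.000137). Il6, a gene of inflammation and the acute phase, was at 0, 0, 0 and 0.179 CPM against 69.7, 64.4, 54.8 and 81.2 CPM (10.76 ± 0.77, adjusted p = 0.000324). Lif, a cytokine of the same family, was at 0.176 to 0.351 CPM against 107, 127, 249 and 288 CPM (9.86 ± 0.44, adjusted p = 0.000216). Ptgs2, the inducible cyclooxygenase gene, was at 0.702, 0, 0.917 and 6.09 CPM against 513, 418, 1460 and 1220 CPM (10.13 ± 1.07, adjusted p = 0.000829). Il33, an alarmin, was at 0.702, 1.1, 5.83 and 1.79 CPM against 451, 557, 406 and 720 CPM, and the gene of its receptor Il1rl1 at 0.0502, 0.132, 2.96 and 24.2 CPM against 523, 611, 380 and 750 CPM. The single lower gene was Cxcl12, which guides stem and progenitor cells, at 211, 136, 226 and 95.8 CPM against 30.3, 30.5, 33.2 and 24.2 CPM (-2.09 ± 0.2, adjusted p = 0.000623). The growth factor genes Ereg and Areg, ligands of the epidermal growth factor receptor, were higher too, Ereg at 0.0502, 0, 0 and 1.92 CPM against 295, 305, 660 and 844 CPM (11.51 ± 1.2, adjusted p = 0.000792). Mcpt8, a granule protease gene of basophils, was at 0, 0, 0.0417 and 0.761 CPM against 192, 238, 173 and 304 CPM (10.91 ± 0.95, adjusted p = 0.000501).

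All 13 interferon and antigen presentation genes were higher in the second project, with a median log2 change of 5.05. Isg15, which encodes a ubiquitin-like modifier, was at 0.0502, 0.308, 0.5 and 0.851 CPM against 41.5, 107, 12.9 and 130 CPM (7.51 ± 0.79, edgeR adjusted p = 0.000804). Ifit1, an RNA-binding antiviral gene, was at 0, 0, 0.458 and 2.01 CPM against 80.8, 129, 23.6 and 235 CPM (8.25 ± 1.16, adjusted p = 0.00198). B2m, the light chain of class I antigen-presenting molecules, was at 28.1, 32.5, 57.9 and 96 CPM against 782, 963, 487 and 793 CPM (4.28 ± 0.46, adjusted p = 0.000876). Within the second project the E12.5 library was the lowest for all 13 genes. The summed level of the list ran from 837 to 2220 CPM there and from 62.4 to 189 CPM in the first project.

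Immediate early genes, which are transcribed within minutes of a stimulus, split the second project by day. Of 13 AP-1 and immediate early genes, 7 were higher, 2 were lower and the median log2 change was 2.35. Fosb was at 0.201, 0.22, 1.12 and 4.21 CPM in the first project and at 2.95, 2.71, 220 and 258 CPM in the second (6.1 ± 0.8, edgeR adjusted p = 0.00158). Fos was at 1.1, 2.11, 4 and 70.1 CPM against 11.6, 14.3, 201 and 202 CPM (3.59 ± 0.75, adjusted p = 0.00797), and Egr1 at 6.22, 5.94, 21.2 and 147 CPM against 72.9, 82.6, 496 and 411 CPM (3.71 ± 0.58, adjusted p = 0.00284). In the second project these genes were low at E9.5 and E10.5 and high at E12.5 and E14.5. Fosl1, which encodes the Fos family member Fra-1, lacked that step, at 1.76 to 2.37 CPM against 35.1, 46.6, 56.7 and 60.1 CPM (4.9 ± 0.24, adjusted p = 0.000216). Jun, the partner of the Fos proteins, differed less between projects, at 72.3, 96.4, 138 and 167 CPM against 76.8, 101, 140 and 143 CPM, and was not called (0.32 ± 0.15, adjusted p = 0.119). Without the embryonic day block the count of higher genes in this list was 4, and Fos was among those no longer called.

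**Figure D2:**
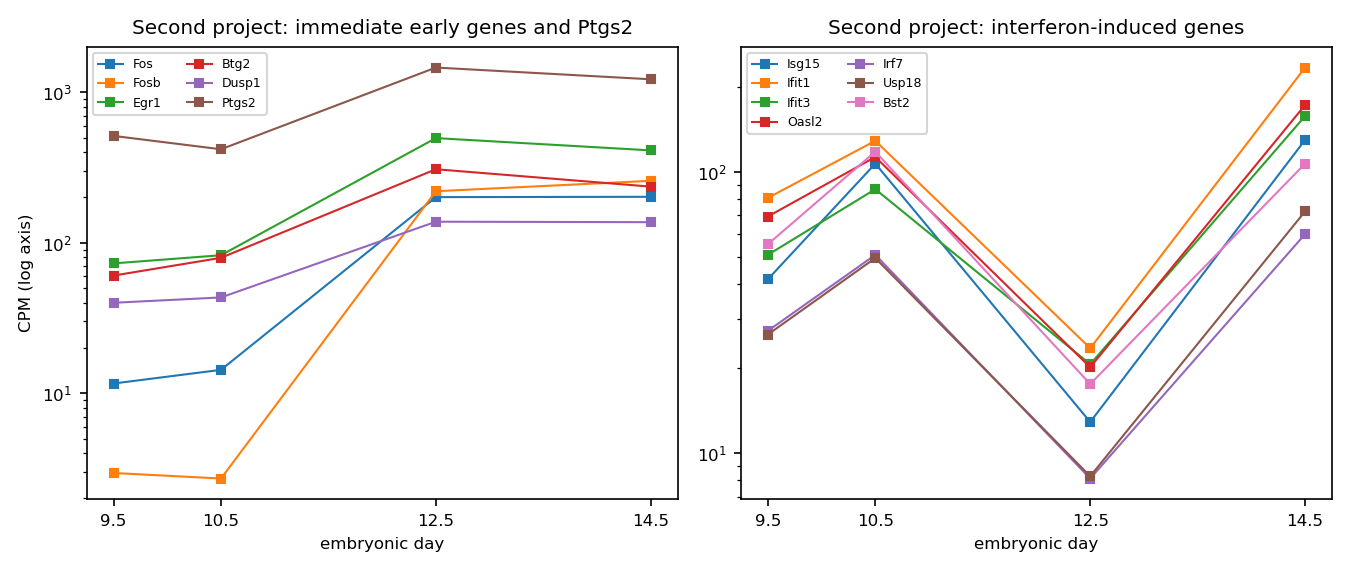
Levels in the 4 second-project libraries by embryonic day, in CPM on a log axis, for 6 immediate early or inducible genes (left) and 7 interferon-induced genes (right), 1 point per library. Fos, Fosb, Egr1, Btg2 and Dusp1 step up between E10.5 and E12.5, and the 7 interferon-induced genes are lowest in the E12.5 library.

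Lysosome genes were higher as a whole list, 20 of 20 tested, with a median log2 change of 2.34. Ctsl, the gene of the protease cathepsin L, was at 132, 120, 120 and 215 CPM against 7220, 7630, 7510 and 9940 CPM (6.15 ± 0.39, edgeR adjusted p = 0.000295). Ctsb (cathepsin B) was at 106, 117, 232 and 431 CPM against 2930, 3230, 2480 and 2740 CPM (4.26 ± 0.51, adjusted p = 0.0012). Lamp1, the main lysosomal membrane protein gene, was at 198, 190, 220 and 307 CPM against 841, 976, 681 and 877 CPM (2.23 ± 0.24, adjusted p = 0.000834). These 3 genes did not overlap between the projects, as 24.2% of all genes tested did not in that direction. Of the 20 genes, 12 were 2-fold or more higher at each day, beside 11.7% of all genes tested. Gpnmb, a lysosomal glycoprotein gene of macrophages, osteoclasts and pigment cells, was at 0.452, 0.308, 1.17 and 6.63 CPM against 388, 434, 206 and 297 CPM (8.42 ± 1.04, adjusted p = 0.00131).

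Macrophages are rich in lysosomes and chemokines, and their genes were examined beside these lists. Of 14 macrophage genes 3 were higher (Cd68, Itgam and Lyz2), 1 was lower and 10 were not called, and their median log2 change was 2.61. That number of higher genes is no larger a share than the 29.5% called higher over all genes tested. The summed level of the 14 genes was 607 to 1570 CPM in the second project, 8.23 to 400 CPM in the first and 8.38 to 199 CPM in the AGM libraries. Lyz2 (lysozyme) made up most of it, at 0.151, 1.28, 4.92 and 22.3 CPM against 1110, 1110, 435 and 533 CPM (8.33 ± 1.59, edgeR adjusted p = 0.00582). Csf1r, the receptor gene that defines the lineage, was at 0.903, 7.18, 31.6 and 50.2 CPM against 22, 30.5, 12.9 and 16.6 CPM and was not called (adjusted p = 0.483). Cx3cr1, a chemokine receptor gene of tissue macrophages, was lower, at 0.401, 4.93, 22.2 and 24.5 CPM against 0.113, 0.57, 0 and 0.259 CPM (-4.86 ± 1.15, adjusted p = 0.0125). None of the other 13 genes was at 0 in a second-project library. DESeq2 called 11 of the list higher, and edgeR without the E14.5 pair called 8. The part of macrophage RNA in the chemokine and lysosome results was not tested.

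S100, annexin and galectin genes, calcium- or sugar-binding proteins of motile and stressed cells, were higher in 13 of 15 cases and lower in 0, with a median log2 change of 3.4. S100a4 was at 0.0502, 0, 0.25 and 0.492 CPM against 137, 134, 103 and 121 CPM (9.68 ± 0.79, edgeR adjusted p = 0.000437). S100a6 was at 4.01, 1.5, 6.37 and 66 CPM against 1740, 1960, 1450 and 1590 CPM (8.34 ± 1.2, adjusted p = 0.00221). Neither gene overlapped between the projects, as 24.2% of all genes tested did not in that direction. Among 10 oxidative stress response genes 6 were higher and 0 lower, led by Nqo1, a quinone reductase gene, at 1.86, 1.98, 9.37 and 6.98 CPM against 193, 115, 198 and 79.8 CPM (5.41 ± 0.63, adjusted p = 0.0011).

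Genes of the dividing cell were lower in the second project. Of 24 cell cycle and replication genes 23 were lower, 0 were higher and 1 (Hmgb2) was not called, with a median log2 change of -3.35. Mki67, present in every phase of the dividing cell, was at 870, 855, 494 and 764 CPM against 7.26, 15.9, 3.54 and 19 CPM (-5.91 ± 0.4, edgeR adjusted p = 0.000314). Mcm5, a subunit of the replicative helicase, was at 480, 391, 219 and 167 CPM against 3.4, 9.19, 5.32 and 7.19 CPM (-5.23 ± 0.47, adjusted p = 0.000549). Aurkb, a mitotic kinase gene, was at 137, 132, 72.3 and 80.8 CPM against 2.04, 3.06, 1.77 and 2.07 CPM (-5.2 ± 0.24, adjusted p = 0.000216). All 24 genes had every second-project library below every first-project library, as had 38.2% of all genes tested. The summed level of the list was 3910 to 7530 CPM in the first project, 5620 to 7660 CPM in the AGM libraries and 422 to 606 CPM in the second project.

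Inhibitors of the cell cycle and targets of the p53 tumour suppressor went mostly the other way, with 13 of 18 higher, 2 lower and a median log2 change of 2.33. Cdkn2a, which encodes the inhibitors p16Ink4a and p19Arf, was at 0.151, 0.044, 0 and 0.224 CPM against 41.8, 61, 52.4 and 49.8 CPM (9.24 ± 0.7, edgeR adjusted p = 0.000369). Its neighbour Cdkn2b (p15) was at 0.1, 0.088, 0.583 and 2.46 CPM against 212, 193, 183 and 181 CPM (8.87 ± 0.97, adjusted p = 0.000894). The 2 neighbouring inhibitor genes were thus close to the limit of detection in the first project and steady over the 4 days of the second. Cdkn1a (p21), a p53 target, was at 16.3, 24.1, 50 and 115 CPM against 316, 416, 362 and 482 CPM (3.66 ± 0.46, adjusted p = 0.00136). Ccng1 and Mdm2, further p53 targets, were at 56.1 to 110 CPM against 1170 to 1330 CPM and at 66 to 79 CPM against 334 to 548 CPM. The inhibitor gene Cdkn1b (p27) was lower, at 61.7, 96.8, 93.7 and 115 CPM against 17.7, 14.6, 18.8 and 11 CPM (-2.23 ± 0.31, adjusted p = 0.00195). Trp53 itself was the other lower gene (-0.76 ± 0.24, adjusted p = 0.0345), a call that was lost on leaving out the E9.5, the E10.5 or the E12.5 pair (adjusted p 0.0861 to 0.119).

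Genes of fibroblasts and dermal mesenchyme were detected in both projects. Of 16 such genes 7 were higher in the second project, 2 were lower (Twist1 and En1) and 7 were not called, with a median log2 change of 1.98. Over all genes tested, 29.5% were higher and 29.3% lower. Col1a1, the main fibrillar collagen gene of the dermis, was at 231, 118, 2360 and 10500 CPM against 1610, 2650, 1610 and 2420 CPM (1.5 ± 1.39, edgeR adjusted p = 0.384). At E9.5 and E10.5 the second project was higher, and at E12.5 and E14.5 it was lower. Fn1 (fibronectin) was at 671, 381, 1020 and 1900 CPM against 7480, 8470, 8410 and 9100 CPM (3.65 ± 0.51, adjusted p = 0.00196). Crabp1, a retinoic acid-binding protein gene of embryonic dermis, was at 386, 431, 140 and 404 CPM against 1370, 1530, 1580 and 1680 CPM (2.61 ± 0.39, adjusted p = 0.0025). Twist1, a transcription factor gene of the mesenchyme, was lower, at 158, 122, 257 and 264 CPM against 17, 21.3, 14.6 and 19.5 CPM (-3.07 ± 0.3, adjusted p = 0.000678). En1, which marks the dorsal dermal lineage, was at 3.66, 21.5, 26.3 and 29.9 CPM against 3.4, 5.91, 5.17 and 5.96 CPM (-1.37 ± 0.45, adjusted p = 0.0408), and lost its call on leaving out the E10.5, E12.5 or E14.5 pair (adjusted p 0.0875 to 0.13). The count of higher genes in this list was 4 without the E9.5 pair and 4 without the day block.

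Of 40 collagen genes 11 were higher, 12 were lower and the median log2 change was 0.54. These counts are near the 29.5% higher and 29.3% lower of all genes tested, and the family did not move one way. Col6a3, a beaded-filament collagen gene, was at 9.03, 13.9, 230 and 1230 CPM against 3620, 4560, 4370 and 5000 CPM (6.3 ± 1.59, edgeR adjusted p = 0.0161). Col7a1, the anchoring fibril gene beneath the epidermis, was at 8.28, 3.43, 23.2 and 180 CPM against 345, 494, 388 and 487 CPM (4.91 ± 1.07, adjusted p = 0.00931). The lower collagens included Col2a1, the main collagen gene of cartilage, at 326, 386, 1280 and 51.7 CPM against 2.49, 3.35, 2.51 and 1.75 CPM (-6.59 ± 0.71, adjusted p = 0.000866). Col26a1 was the largest collagen decrease, at 139, 136, 348 and 244 CPM against 0.113, 0.142, 0 and 0.13 CPM (-10.44 ± 0.46, adjusted p = 0.000211). The number of higher collagens depended on the days used and was 7 without E9.5, 6 without E10.5 and 18 without E14.5. Elastic fibre genes went both ways as well. Of 17 genes 9 were higher and 5 lower, beside 29.5% and 29.3% of all genes tested, and the lower count is near that share. Fbn1 (fibrillin 1) was at 74.9, 45.1, 173 and 405 CPM against 1450, 1810, 1310 and 1760 CPM (3.99 ± 0.62, adjusted p = 0.00294). Its embryonic relative Fbn2 was at 416, 229, 602 and 570 CPM against 21.4, 36.5, 22.2 and 30.9 CPM (-3.65 ± 0.39, adjusted p = 0.000838).

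Several defining epithelial genes were near the limit of detection in the second project at every age, but not every epithelial list was. Basal keratinocyte genes summed to 128 to 3800 CPM in the first project and 148 to 175 CPM in the second. Suprabasal genes summed to 8.06 to 3060 CPM against 6.55 to 10.4 CPM, and simple epithelium genes to 49 to 1120 CPM against 58.6 to 189 CPM. In bulk tissue, fewer cells of a type and less RNA per cell cannot be told apart. Krt5, the keratin gene of basal keratinocytes, was at 3.36, 3.52, 93.7 and 1720 CPM in the first project and at 0.453, 1.28, 1.62 and 0.324 CPM in the second. Its partner Krt14 was at 0.652, 0.484, 34.3 and 459 CPM against 0.113, 0.142, 0 and 0 CPM, 3 counts in all. Krt1, of suprabasal keratinocytes, was at 0.251, 0.572, 1.92 and 843 CPM against 0, 0, 0.148 and 0 CPM. These keratinocyte genes were thus highest at E14.5 in the first project and low at each day of the second. The test called few of them, 0 higher and 1 lower of 9 basal genes tested, and Krt5 was not called (edgeR adjusted p = 0.0736). The called gene was Trp63, a defining transcription factor gene of the stratified epithelium, at 10.6, 9.11, 33.4 and 248 CPM against 0.567, 0.356, 0.443 and 0.648 CPM (-5.84 ± 0.85, edgeR adjusted p = 0.00226). Without the E10.5 pair 5 basal genes were called lower, with DESeq2 4 and with limma-voom 5, while without the E14.5 pair 2 were called higher and 2 lower, with a median log2 change of -1.29. Among 8 simple epithelium genes 4 were lower and 0 higher, with Cdh1 (E-cadherin) at 30.5, 10.8, 26.6 and 493 CPM against 0.68, 0.641, 1.48 and 0.518 CPM (-5.49 ± 1.13, adjusted p = 0.00763). Without the E9.5 pair 1 of these 8 was called lower. The keratins, Trp63 and Cdh1 named here were therefore detected in the first project but scarcely in the second, which does not hold for every listed epithelial gene.

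Blood genes showed the largest decreases. The 8 haemoglobin genes together held 51880, 108559, 55816 and 187368 counts in the first project and 1, 0, 1 and 0 counts in the second, and all 7 that were tested were lower. Hbb-y, the embryonic beta-like globin gene, was at 1070, 2030, 1480 and 1940 CPM against 0 at each day, at least 24700-fold lower. Hba-x, the embryonic alpha-like gene, was at 886, 1500, 517 and 383 CPM against 0, at least 12300-fold lower. The adult gene Hbb-bs was at 5.07, 11.7, 39.1 and 3080 CPM and held 1 count in the second project. Embryonic globins were thus present at each age of the first project and the adult gene climbed to E14.5, while the second project held next to no globin count at any age. All 10 red cell genes tested were lower, with Slc4a1, the band 3 anion exchanger of the red cell membrane, at 91.1, 144, 66.1 and 139 CPM against 1 count in all. The summed red cell list, which includes the widely expressed transferrin receptor gene Tfrc, was 197 to 572 CPM against 26.3 to 35.4 CPM.

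Endothelial genes were lower in 9 of 10 cases, with a median log2 change of -4.25. Pecam1, an adhesion molecule of vessel walls, was at 36.9, 43.1, 84.3 and 136 CPM against 0.567, 0.57, 0.739 and 0.389 CPM (-6.58 ± 0.49, edgeR adjusted p = 0.000364). Tie1, a vascular receptor gene, was at 44.5, 40.7, 54.9 and 67.2 CPM against 0.34, 0.285, 0.295 and 0.0648 CPM (-7.43 ± 0.52, adjusted p = 0.000324). The exception was Flt1, a receptor gene for vascular endothelial growth factor, at 43.6, 35.1, 37.7 and 67.9 CPM against 89.8, 75.7, 92.5 and 89.3 CPM (1.29 ± 0.22, adjusted p = 0.00383). The endothelial list summed to 400 to 780 CPM in the first project and 103 to 138 CPM in the second, and Flt1 alone made up most of the latter.

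Skeletal muscle genes were lower in 9 of 11 cases and higher in 0. Myog, which drives muscle differentiation, was at 13.9, 29.2, 157 and 86 CPM against 0 at each day, at least 1120-fold lower. Pax3, of muscle progenitors and neural crest, was at 82.4, 139, 9.04 and 5.6 CPM against 0, 0.356, 0 and 0 CPM (-8.96 ± 0.59, edgeR adjusted p = 0.000295). Myh3, the embryonic myosin gene, was at 28, 125, 542 and 1590 CPM against 0.794, 0.427, 0.443 and 0.389 CPM (-8.8 ± 1.24, adjusted p = 0.00205). The median log2 change of the list was -8.68, or -7.2 with genes without a second-project count set at their bound. Neural crest, Schwann and melanoblast genes were lower in 6 of 9 cases and higher in 1. Sox10, the defining transcription factor gene of crest-derived glia and melanoblasts, was at 45.2, 52.4, 30.1 and 21.4 CPM against 0.567, 0.0712, 0.739 and 0.0648 CPM (-6.65 ± 0.71, adjusted p = 0.000841). Ngfr, a crest and glial receptor gene, was at 56, 136, 141 and 89.8 CPM against 0.295 to 0.453 CPM (-7.64 ± 0.37, adjusted p = 0.000216). The higher gene was Mitf, known from melanocytes and also active in other lineages, at 3.46, 4.01, 6.5 and 16.3 CPM against 38.5, 33.5, 34.7 and 35 CPM (2.85 ± 0.46, adjusted p = 0.00316), while the pigment gene Dct had no count in the second project.

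Of 10 neural progenitor and neuron genes tested 4 were lower, 0 were higher and 6 were not called, with a median log2 change of -2.07. Over all genes tested, 29.3% were called lower. The summed level of the list overlapped between the projects, at 483 to 4130 CPM in the first and 422 to 529 CPM in the second. Dcx, of migrating neurons and 1 of the 4 lower genes, was at 29.9, 349, 299 and 54.7 CPM against 0.34, 0.142, 0.295 and 0.324 CPM (-8.55 ± 0.78, edgeR adjusted p = 0.00057). In the first project Dcx peaked at E10.5 and E12.5. For the list, the count of lower genes was 2 without E9.5, 2 without E12.5 and 11 without E14.5. Contractile smooth muscle genes, which myofibroblasts also express, were higher in 5 of 11 cases and lower in 0, beside 29.5% higher over all genes tested. The count of higher genes was 4 without the E9.5, E10.5 or E12.5 pair and 6 without the E14.5 pair. Tagln was at 2.41, 1.89, 2.92 and 5.28 CPM against 39.3, 60.7, 25.7 and 39.7 CPM (4.08 ± 0.43, adjusted p = 0.000817). Acta2, the smooth muscle actin gene, was at 40, 32.3, 273 and 251 CPM against 204, 390, 128 and 286 CPM and was not called (adjusted p = 0.155). Of 10 pluripotent stem cell genes 9 were too low to test, and their summed level was 0.648 to 1.77 CPM in the second project against 2.69 to 7.39 CPM in the first.

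**Figure D3:**
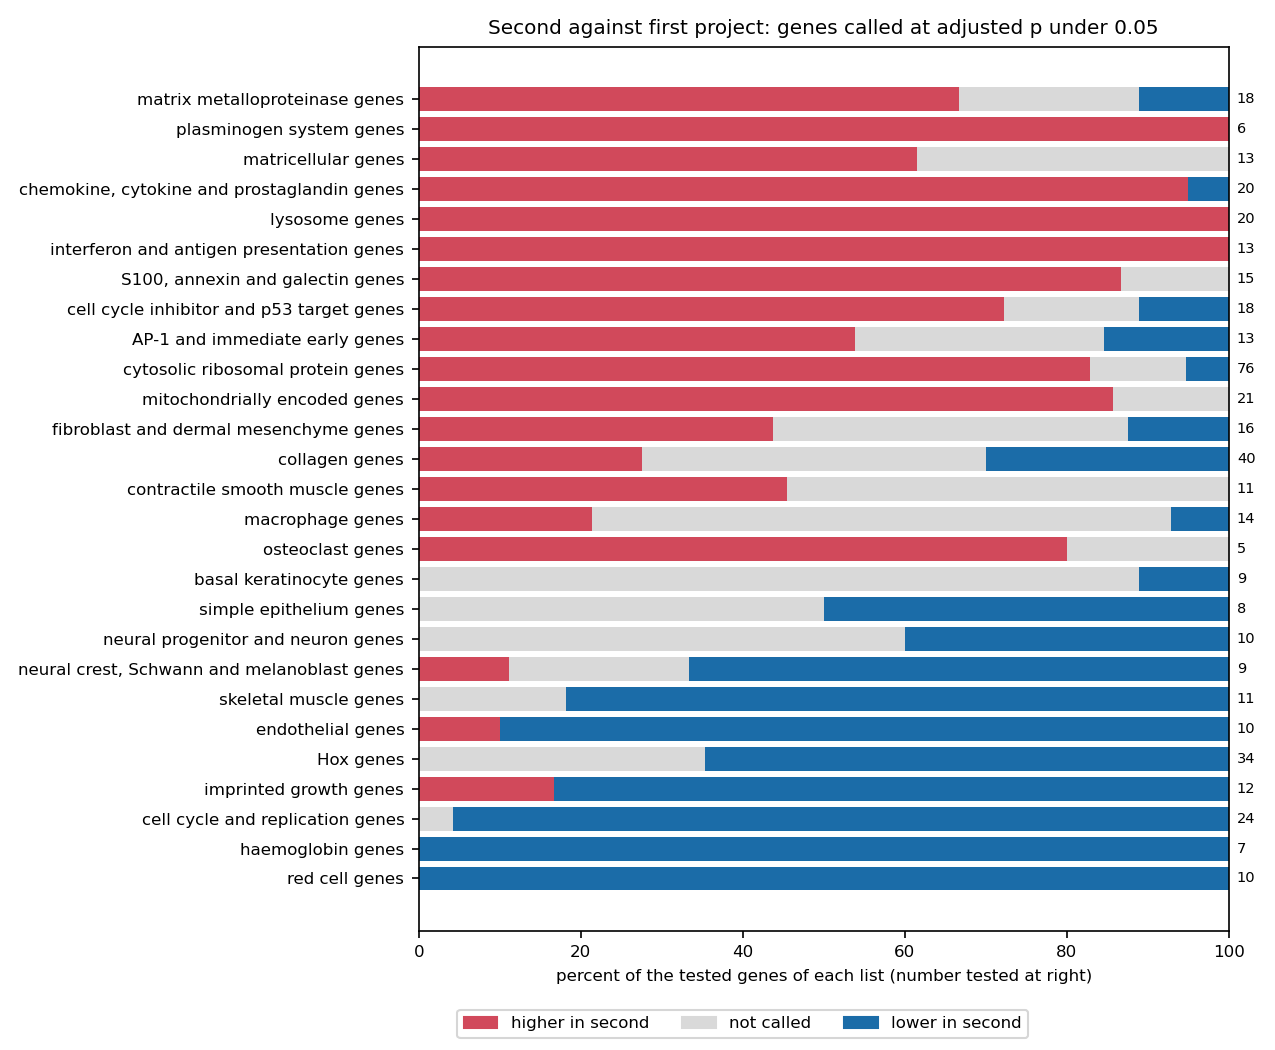
For 27 gene lists, the percentage of tested genes that were called higher (red), not called (grey) or called lower (blue) in the second project by edgeR at an adjusted p under 0.05, with the number tested at the right. Over all genes tested, 29.5% were higher and 29.3% lower. Secreted, lysosome and interferon lists lie at the red end and cell cycle, endothelial, muscle and blood lists at the blue end.

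Imprinted growth genes, which are expressed from a single parental allele and are active in the growing embryo, were lower in 10 of 12 cases, with a median log2 change of -4.22. Dlk1, a Notch-like ligand of fetal mesenchyme, was at 338, 338, 788 and 2460 CPM against 2.15, 1.92, 2.07 and 1.88 CPM (-8.07 ± 0.69, edgeR adjusted p = 0.000496). Igf2, a fetal growth factor gene, was at 163, 109, 867 and 526 CPM against 10.1, 12.2, 11.7 and 10.3 CPM (-4.44 ± 0.6, adjusted p = 0.00177). H19, the noncoding RNA of the same locus, was at 2200, 1600, 5780 and 7420 CPM against 339, 286, 386 and 248 CPM (-3.15 ± 0.52, adjusted p = 0.00357). These 3 genes did not overlap between the projects, as 38.2% of all genes tested did not in that direction. Igf2r, which clears the Igf2 growth factor from the cell surface, was higher, at 314, 199, 417 and 589 CPM against 1190, 1160, 1500 and 1410 CPM (2.23 ± 0.29, adjusted p = 0.00154). Meg3, which shares a locus with Dlk1, was the other higher gene (0.99 ± 0.29, adjusted p = 0.0278), a call lost without the E9.5, E10.5 or E12.5 pair (adjusted p 0.0633 to 0.0996) and with library totals. Igfbp7, which encodes a secreted protein that binds such growth factors, was at 0.602, 1.67, 7 and 27.9 CPM against 252, 274, 235 and 263 CPM (6.31 ± 1.07, adjusted p = 0.00382).

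Hox genes, which record position along the body axis, were lower in 22 of 34 cases and higher in 0. Hoxb8, a trunk gene, was at 102, 224, 103 and 19.4 CPM against 6.24, 6.91, 5.91 and 6.15 CPM (-3.42 ± 0.58, edgeR adjusted p = 0.00395). Hoxc5, a gene of the anterior trunk, was at 38.9, 60.7, 92.4 and 42.8 CPM against 3.06, 4.56, 2.22 and 3.37 CPM (-3.74 ± 0.35, adjusted p = 0.000606). The 12 genes not called included the distal limb and tail genes, whose level in the first project came from the E12.5 library. Hoxd13 was at 0.652, 0.088, 300 and 0.224 CPM in the first project and at 20.7, 23.8, 16.1 and 20 CPM in the second (4.93 ± 2.33, adjusted p = 0.113). Hoxa13 was at 0.0502, 0, 57.9 and 0.269 CPM against 6.12, 7.12, 6.06 and 6.61 CPM (4.53 ± 2.21, adjusted p = 0.119). Both genes were thus present at a steady low level at each day of the second project. Without the E12.5 pair 6 Hox genes were called higher, and DESeq2 on all days called 5.

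Several gene classes that share sequence with near-identical copies also differed, and their values are uncertain because the counting settings are not given in the sources used here. Processed pseudogenes, which are intronless copies of messenger RNAs, were called higher in 1161 of 1252 cases (92.7%) and lower in 23, with a median log2 change of 5.64. They took 2.61, 1.41, 3.31 and 0.863% of the counts in the second project, 0.0759 to 0.11% in the first and 0.104 to 0.15% in the AGM libraries. Rps19-ps6 was at 0.0502, 0, 0.125 and 0.0895 CPM against 204, 161, 314 and 80.8 CPM (11.64 ± 0.53, edgeR adjusted p = 0.000216). Its order over the second project, highest at E12.5 and then at E9.5, E10.5 and E14.5, was that of 816 of the 1252 processed pseudogenes (65.2%) and of 1337 of 13932 protein coding genes (9.6%). The total count per library followed the reverse order. Protein coding genes were called higher in 3281 cases (23.6%) and lower in 4577 (32.9%), with a median log2 change of -0.19.

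Cytosolic ribosomal protein genes were higher in 63 of 76 cases and lower in 4, with a median log2 change of 2.13. For 60 of the 63, however, every first-project library lay below every one of the other 10, the AGM libraries included. Their share of counts was 0.792 to 1.21% in the first project, 1.87 to 2.3% in the second and 2.63 to 3.72% in the AGM libraries, so the second project lay between the others. Gapdh, a glycolytic enzyme gene with many pseudogenes, showed the same order, at 54.7, 25.7, 8.62 and 15.2 CPM in the first project, 264, 338, 253 and 267 CPM in the second and 880 to 1640 CPM in the AGM libraries (4.09 ± 0.48, edgeR adjusted p = 0.00113). Mitochondrially encoded genes were higher in 18 of 21 cases, and their share was 2.28 to 3.03% against 0.771 to 1.45%, with 1.69 to 2.71% in the AGM libraries. As further reference genes, Tbp, a general transcription factor gene, was at 59.6, 59.1, 37.9 and 28.1 CPM against 29.5, 29, 25.8 and 21.8 CPM and was not called (adjusted p = 0.127). Hprt, a purine salvage gene, was at 63.8, 58.3, 31.1 and 83.1 CPM against 114, 115, 109 and 97.4 CPM (1.29 ± 0.3, adjusted p = 0.0115). Actb was lower (-0.89 ± 0.27, adjusted p = 0.0296), a call lost without the E9.5, E10.5 or E12.5 pair (adjusted p 0.0657 to 0.182). Xist, of female cells, and the Y-linked gene Ddx3y were both present in each of the 8 libraries, Xist at 256 to 648 CPM against 383 to 495 CPM and Ddx3y at 32.9 to 52.6 CPM against 80.9 to 109 CPM.

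**Figure D4:**
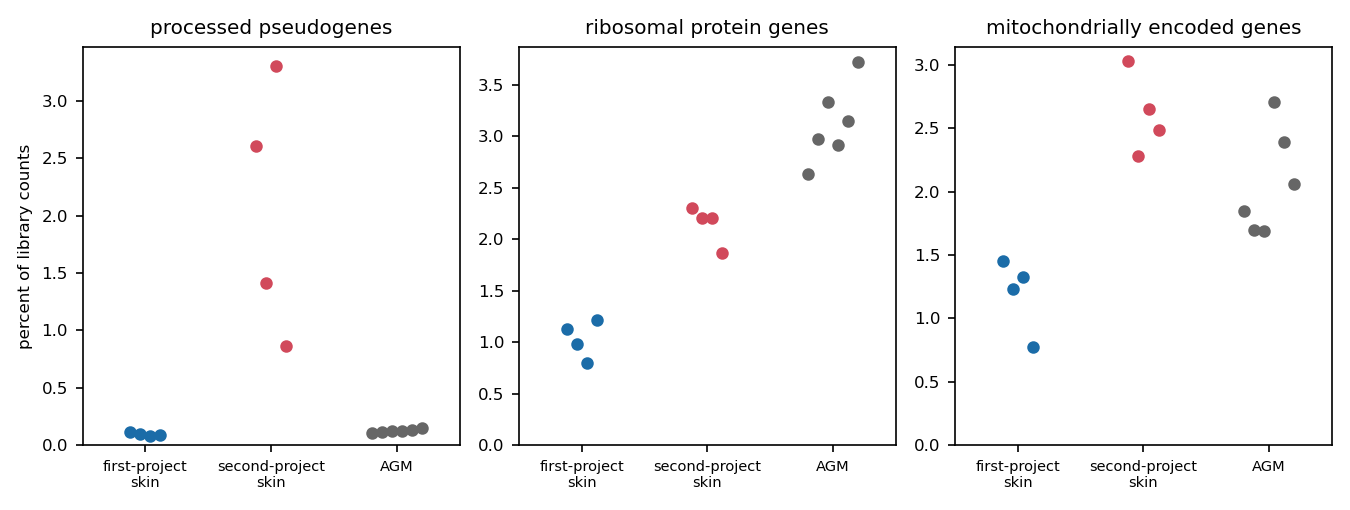
Share of each library's counts, in percent, taken by processed pseudogenes, cytosolic ribosomal protein genes and mitochondrially encoded genes, 1 point per library, for the 4 first-project and 4 second-project skin libraries and the 6 AGM libraries. Pseudogenes stand out in the second project (0.863 to 3.31%), while the ribosomal protein share is lowest in the first project (0.792 to 1.21%).

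The AGM libraries give a reference level outside both skin projects. They are of another tissue and reach only to E11.5, so a place against them cannot be told apart from tissue and age. The shares that follow are of genes already called in the stated direction, not of all genes tested. Of the 4893 genes called higher, 3436 (70.2%) had all 4 second-project libraries above all 10 others, and 555 (11.3%) had all 4 first-project libraries below all 10 others. Of the 4861 genes called lower, 4485 (92.3%) had the second project below all 10 others and 291 (5.99%) the first project above them. Across the 16588 tested genes, which are not independent replicates, log2 levels correlated at r = 0.878 to 0.982 among first-project libraries and 0.962 to 0.991 among second-project libraries. Between projects r was 0.658 to 0.753 at the same day. First-project skin correlated with the AGM libraries at 0.862 to 0.979, and second-project skin at 0.659 to 0.745. These values share libraries and are given as a description.

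The second project also varied less with age. A range of 4-fold or more over the 4 days, with 1 CPM added, was seen in 2280 genes of the first project (13.7%) and 417 of the second (2.51%), and the median range was 0.783 against 0.492 on the log2 scale. After thinning each library to the depth of the shallowest the counts were 2389 and 443. Days are not replicates, so these counts are a description. A test of the gap itself, as a slope of log2 change per day of development, called 60 genes (0.362%) by edgeR at an adjusted p under 0.05, 2 positive and 58 negative, and 3144 at an unadjusted p under 0.05. In all 60 genes the range over days was larger in the first project. The count depended on the days used, and was 0 without the E10.5 pair and 1325 without the E12.5 pair.

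The 5 largest negative slopes were in genes that were highest at E14.5 in the first project. Krt15, a keratin gene of basal keratinocytes, was at 0.201, 0.484, 30.9 and 543 CPM against 0.68, 0.285, 0.591 and 0.453 CPM (slope -2.39 ± 0.13 log2 per day, edgeR adjusted p = 0.0231). Thy1, a surface protein gene of dermal fibroblasts, was at 0.201, 0.176, 7.08 and 108 CPM against 540, 665, 502 and 601 CPM (slope -2.03 ± 0.18, adjusted p = 0.037). Aspn, a small matrix proteoglycan gene, was at 0.251, 0.352, 25.2 and 178 CPM against 13.6, 12.2, 15.1 and 9.65 CPM (slope -2.15 ± 0.16, adjusted p = 0.0337). The second project was therefore much flatter than the first for all 3. The gap opened for Krt15, narrowed for Thy1 and crossed for Aspn. Areg was at 0, 0, 0.25 and 4.39 CPM against 20.7, 19, 41.4 and 31.5 CPM (slope -2.19 ± 0.23, adjusted p = 0.0384), and Ifi202b, an interferon-induced DNA sensor gene, at 0, 0, 0.125 and 10.6 CPM against 432, 474, 246 and 608 CPM (slope -2.48 ± 0.18, adjusted p = 0.0325). The 2 positive slopes among all genes called were in genes that went down with age in the first project. Nr2f1, an orphan nuclear receptor gene of embryonic progenitors, was at 270, 309, 51.6 and 13.6 CPM against 3.63, 6.98, 3.69 and 5.7 CPM (slope 0.98 ± 0.09, adjusted p = 0.037). Lama1, the laminin chain gene of early basement membranes, was at 154, 125, 23.8 and 16.5 CPM against 1.02, 1.28, 1.03 and 2.27 CPM (slope 0.89 ± 0.1, adjusted p = 0.0433).

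**Figure D5:**
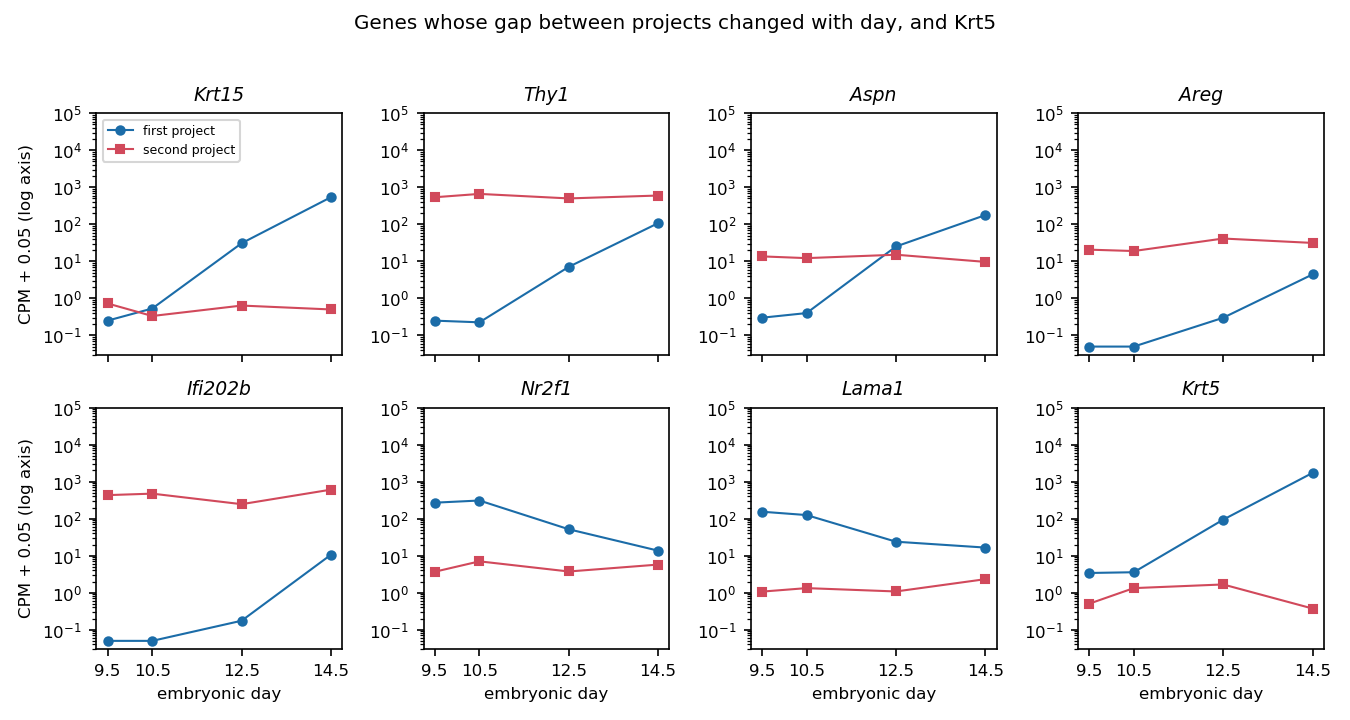
Levels by embryonic day of 7 genes whose gap between projects changed with age by the slope test, and of Krt5, in CPM with 0.05 added on a log axis (blue circles first project, red squares second, 1 library per point). The first project covers a wider range over the days than the second in each panel, as in Krt15 at 0.201 to 543 CPM against 0.285 to 0.68 CPM.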

How the data were processed

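The deposited table held whole-number read counts for 53465 genes in all 14 libraries of polyadenylated RNA, made by the authors. Per the submitters' processing notes, the tools were featureCounts 1.6.0, STAR 2.5.0a, DESeq2 1.20.0 and Trimmomatic 0.36, and the build was GRCm38, and strand setting, treatment of reads with several matches and annotation release are not given in the sources used here. The authors' transcript length column could not be used as a gene length, so levels per kilobase rest on GENCODE M21 exon lengths, which matched 53360 gene IDs. For 108 symbols on more than 1 ID the ID with most counts was used.

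Counts were tested with edgeR 4.0.16 (quasi-likelihood, TMM, R 4.3.3), with embryonic day as a block because the labels give the same day to both libraries of a pair. The slope test adds project by centred day. DESeq2 1.42.0, limma-voom 3.58.1 and other scalings, filters, sample sets and a thinned depth were alternatives. The planned 14-library fit was replaced, since AGM columns of the second round carry no age. An exact sign-flip test over 4 pairs cannot go below p = 0.125, so none is given. The model code was tested on simulated data.

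Named genes were the 12 largest shifts each way (at least 50 CPM in the higher project and 2-fold at each day), the 10 highest levels per kilobase in each project, the 5 largest slopes each way (20 CPM in a library), members of 46 gene lists, and reference genes. Some of these are not reported here. The members and lists were chosen with earlier results of these data known. A gene without a count in one project is compared with a floor of 3 counts over the project. Intervals and floors cover counting error only. Promoter windows are from RefSeq on GRCm38.p6.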

Additional observations from a re-analysis of the deposited data

Results flagged for a closer look

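In 37 sets of 4 libraries, the highest or lowest library was set apart when its gap to the nearest other exceeded the share of the range that Dixon's 95% critical value allows, which chance gives in about 1 set of 20. The values given here that were so marked all came from the first-project E14.5 library. There the 20 most abundant genes took 7.52% of the counts, and the adult globin genes Hbb-bt (1350 CPM), Hba-a2 (629 CPM), Hbb-bs (3080 CPM) and Hba-a1 (987 CPM) were far above the earlier days. Smtnl2 was at 135 CPM in that library.

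By the slope test of edgeR's quasi-likelihood fit, the gap between projects changed with embryonic day in 60 genes. The slopes, second minus first project in log2 per day, were 0.98 for Nr2f1, 0.89 for Lama1, -2.48 for Ifi202b, -2.39 for Krt15, -2.19 for Areg, -2.15 for Aspn and -2.03 for Thy1.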

How the results depend on the processing

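Of the alternatives run, the count of called genes (9754) fell to 5708 when tested against a log2 change of 1 (3025 higher, 2683 lower) and to 3281 with the E10.5 and E14.5 pairs only, chosen after seeing the data (1856 higher, 1425 lower). Leaving out 1 day gave 7479 to 10253, with 3796 to 4904 higher and 3683 to 5349 lower. No named gene's log2 change reversed while called. Without the replicate block of embryonic day 10579 genes were called. The slope count (60) was 1276 with DESeq2, 172 with limma-voom, 544 without a low-count filter, 351 with no replicate block, 97 after thinning, and 162, 0, 1325 and 33 without the E9.5, E10.5, E12.5 or E14.5 pair. The 0 of edgeR's test came with 1947 at an unadjusted p under 0.05. With 5 CPM added, 1119 genes were 2-fold higher and 1704 lower at all days, 157 were 8-fold higher and 86 lower, and 1226 first-project and 139 second-project genes ranged 4-fold. With 0.1 CPM added, 1079 were 8-fold higher and 738 lower. The causes of these changes were not tested. The second project's depth, down to 6770338 counts, limits its low genes.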

Other observations

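A few genes of progenitors and epithelia followed, within the second project, the order of levels that most processed pseudogenes showed, highest at E12.5 and then at E9.5, E10.5 and E14.5. Sox2, a progenitor transcription factor gene, was at 36.6, 21.1, 57.9 and 11.3 CPM. Esrp1, an epithelial splicing regulator gene, was at 92.4, 57.8, 146 and 42.2 CPM. That order was found in 816 of 1252 processed pseudogenes (65.2%), 1337 of 13932 protein coding genes (9.6%) and 2246 of all genes tested (13.5%) of the second project, and in 1.52, 2.51 and 2.58% of the same classes in the first. Whether these levels and the pseudogene counts share a source was not tested.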
